A study of Homo sapiens with 6 samples.

Results

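DMBT1 and CD14 are 2 genes for proteins that bind microbial surface patterns, and both were higher in H1299 cells that overexpressed the long non-coding RNA lncBCAS1-4_1 than in wild-type H1299 cells, where they were low. H1299 is a human lung cancer line of the non-small cell type. They are 2 of the 19201 entries of the gene count table and 2 of the 19101 entries that passed a filter on low counts. They were chosen by their symbols with their low control level and their difference in this comparison already known, so their values are a description and were not tested. RNA-seq was run on total RNA of 3 overexpressing libraries (genotype lncBCAS1-4_1 overexpressed) and 3 control libraries (genotype wildtype). No agent, time or vector is named for either group, so the procedure of overexpression and the RNA itself cannot be told apart as sources of a difference, and no label says whether the overexpressing cells are 1 clone or whether replicates came from separate cultures. P-values therefore measure only the spread between these libraries, which may be technical.

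DMBT1 is a large secreted glycoprotein of mucosal surfaces, built of many scavenger receptor cysteine-rich domains and known to aggregate bacteria, to bind surfactant protein D and to be induced by bacterial signals in epithelial cells. CD14 is a leucine-rich repeat protein held on the cell surface by a GPI anchor or released in soluble form, best known from monocytes and macrophages, where it takes lipopolysaccharide from the lipopolysaccharide-binding protein LBP and passes it to TLR4 and its partner LY96. CD14 is also known as a gene induced by active vitamin D in myeloid cells.

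In GENCODE 44 (GRCh38), DMBT1 (ENSG00000187908) is a protein-coding gene on the plus strand at chr10:122560665-122643736, with 56 exons and 7984 bases in its canonical transcript. CD14 (ENSG00000170458) is a protein-coding gene on the minus strand at chr5:140631728-140633700, with 2 exons and 1356 bases. The 250 bases before the RefSeq start site (GRCh38.p14) are shown for both genes as a description. That both were higher was known when they were chosen, and a shared control of the pair was not tested. The DMBT1 window is chr10:122560504-122560753 (plus strand) and the CD14 window is chr5:140633176-140633425 (minus strand). By GENCODE 44 some transcripts of DMBT1 begin within its window and some of CD14 before its window. Capitals mark matches to the motifs described next.
DMBT1: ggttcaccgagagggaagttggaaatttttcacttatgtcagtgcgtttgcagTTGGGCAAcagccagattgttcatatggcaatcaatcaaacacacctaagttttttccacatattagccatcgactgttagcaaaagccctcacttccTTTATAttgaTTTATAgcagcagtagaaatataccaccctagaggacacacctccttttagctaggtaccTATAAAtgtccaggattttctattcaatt
CD14: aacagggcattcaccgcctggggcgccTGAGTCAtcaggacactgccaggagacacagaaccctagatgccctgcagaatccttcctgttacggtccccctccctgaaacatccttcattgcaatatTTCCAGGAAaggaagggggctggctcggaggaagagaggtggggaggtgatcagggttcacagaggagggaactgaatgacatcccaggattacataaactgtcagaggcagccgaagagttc

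The windows shared no motif among the 8 searched on both strands. The DMBT1 window held 3 matches to the TATA box TATAAA, 1 of them from -29 to -24 relative to the start site and 2 on the opposite strand from -99 to -84, and 10.7% of 35116 RefSeq promoter windows of this length hold at least 1. It also held 1 match to the C/EBP-type motif TTGCNNAA (9.05% of windows) from -197 to -190. The CD14 window held 1 match to the AP-1 element TGANTCA (6.57% of windows) from -223 to -217 and 1 to the GAS element TTCNNNGAA (6.57% of windows) from -123 to -115. The letters of the GC box GGGCGG (42.6% of windows), the ISRE core (3.02%), the NF-kappaB site (5.21%) and the DR3 vitamin D element (0.0655%) were in neither window. The DMBT1 window had a GC content of 39.6% with 3 CpG dinucleotides and the CD14 window 54.8% with 5, against medians of 58% and 11 over all windows.

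Total counts were 84531039 to 90102655 in the overexpressing libraries and 87393887 to 92780032 in the controls, so that 1 CPM (count per 1e6 library counts) was 84.5 to 92.8 counts in a library before TMM scaling, which was applied to all levels below. Transcripts richer in G and C tended to be higher in overexpressing cells: the Spearman correlation of log2 fold change with GC content was 0.72 over the 10128 genes whose mean log2 CPM exceeded 3 (a correlation across genes, not over independent replicates). Values are therefore also given from a fit in which each library was corrected for GC content and for the length of the transcript. The keratins KRT8 and KRT18 are markers of the epithelial origin of the line. KRT8 was at 446 ± 30 CPM in overexpressing cells and 368 ± 18.2 CPM in controls (SD, n = 3 each). KRT18 was at 1301 ± 93 and 956 ± 71.2 CPM, in that order (SD, n = 3 each). In the corrected fit neither was called, at log2 fold changes of -0.038 and 0.13 (edgeR adjusted p = 0.48 and 0.07). They are 2 of 6 genes read as a check of the line. At an edgeR adjusted p under 0.05, 5 were higher and 1 lower as fitted, beside 18.3% and 19.7% of all entries. Once corrected, 2 were higher and 1 lower, beside 11.4% and 11.3%.

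DMBT1 had 737, 654 and 604 counts in overexpressing libraries 1, 2 and 3, against 44, 30 and 44 counts in control libraries 1, 2 and 3. The 3 overexpressing libraries lay close together and far above the controls, and the groups did not overlap. As levels these were 8.73, 7.84 and 6.72 CPM in overexpressing cells and 0.494, 0.317 and 0.49 CPM in controls, with means of 7.76 ± 1.01 and 0.433 ± 0.101 CPM (SD, n = 3 each). The log2 fold change was 4.16, or 17.9-fold, and the lowest overexpressing library was 13.6 times the highest control. The libraries of a group differed by a factor of up to 1.3 in overexpressing cells and 1.56 in controls.

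CD14 had 119, 144 and 64 counts in overexpressing libraries 1, 2 and 3, against 14, 12 and 4 counts in control libraries 1, 2 and 3. Every overexpressing library was again above every control, although the counts were few and overexpressing library 3 stood below the other two. The levels were 1.41, 1.73 and 0.712 CPM in overexpressing cells and 0.157, 0.127 and 0.0445 CPM in controls, with means of 1.28 ± 0.519 and 0.109 ± 0.0582 CPM (SD, n = 3 each). The log2 fold change was 3.53, or 11.6-fold, and the lowest overexpressing library was 4.53 times the highest control. These are the values of a gene that is also counted among vitamin D targets.

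**Figure D1:**
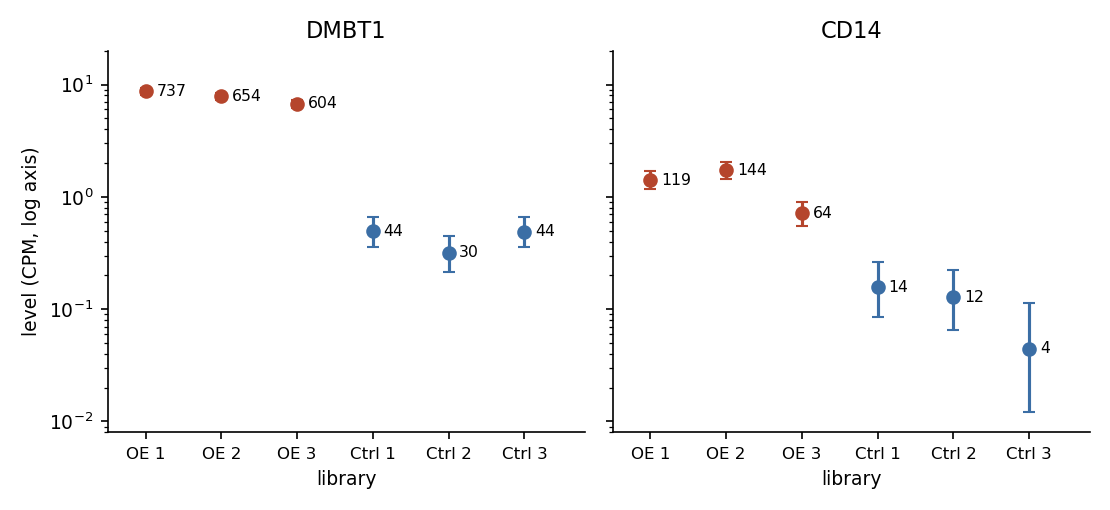
Level of DMBT1 (left) and CD14 (right) in each library (CPM, log axis), with overexpressing (OE) libraries in red and control (Ctrl) libraries in blue; bars are exact Poisson 95% intervals of the count, which is printed beside each point. DMBT1 counts of 604 to 737 stand above 30 to 44 in controls, and CD14 counts of 64 to 144 above 4 to 14.

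The 2 genes differed in how even they were within a group. The coefficient of variation of DMBT1 was 13% in overexpressing libraries and 23.3% in controls, and that of CD14 was 40.5% in overexpressing libraries and 53.2% in controls. For CD14 the exact Poisson 95% intervals of the count, which cover counting error only, were 121 to 170 in overexpressing library 2 and 49.3 to 81.7 in overexpressing library 3, at similar totals, so these libraries differed by more than counting error. The 4 counts of control library 3 had an interval of 1.09 to 10.2, which overlapped those of the other controls (7.65 to 23.5 and 6.2 to 21). For DMBT1, overexpressing library 1 (685 to 792) and library 3 (557 to 654) also had separate intervals. Library 3 was the lowest overexpressing library for both genes, while library 1 was the highest for DMBT1 and library 2 for CD14.

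Per length of transcript, the genes were nearly level with each other. DMBT1 was at 0.972 ± 0.127 CPM per kb in overexpressing cells and 0.0543 ± 0.0126 CPM per kb in controls (SD, n = 3 each), and CD14 at 0.946 ± 0.383 and 0.0807 ± 0.0429 CPM per kb (SD, n = 3 each). The ratio of DMBT1 to CD14 on this scale was 1.05, 0.771 and 1.6 in overexpressing libraries 1 to 3 and 0.534, 0.425 and 1.87 in control libraries 1 to 3. The groups overlapped in this ratio, and no order of the 2 genes held in every library. Among 18968 entries with a known transcript length, DMBT1 lay above 33.6% of entries in overexpressing cells and 3.62% in controls, and CD14 above 33.3% and 5.88%, so both remained in the lower part of the range in the overexpressing cells.

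Across all entries tested, every overexpressing library was above every control in 24.7% of entries, and the fold change upwards was 8 or more in 0.346%. By the criterion in the labels, a change beyond 2-fold at an unadjusted p below 0.05, 1.77% of entries were higher and 1.18% lower. Among the 3743 entries below 0.5 CPM in controls, 60 (1.6%) were 8-fold or more higher, and DMBT1 and CD14 are among these 60. By size of the log2 fold change DMBT1 ranked 33 and CD14 47 of 19101. The rule chose the genes on this contrast, so the ranks describe the pair and support nothing further.

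**Figure D2:**
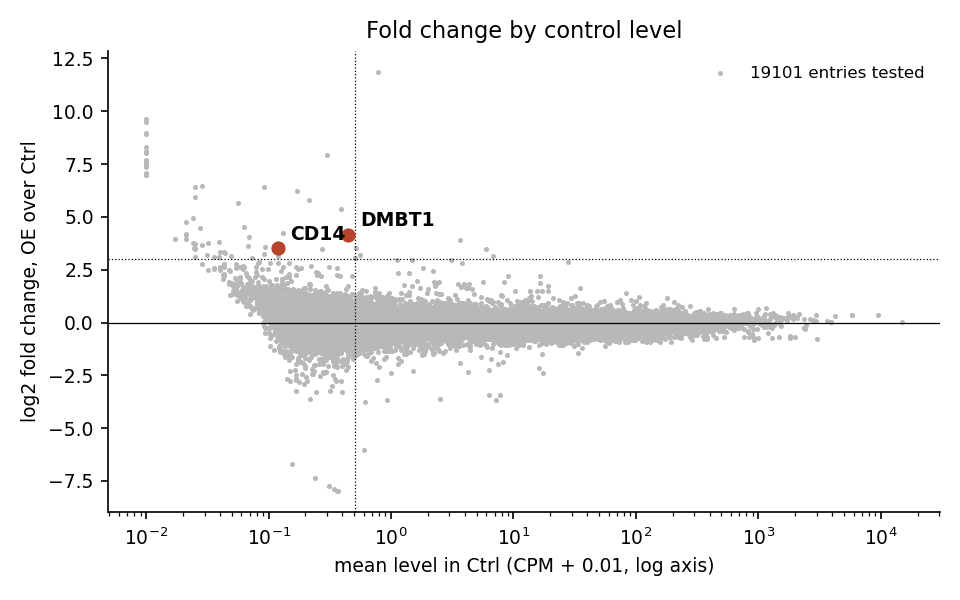
Log2 fold change of overexpressing over control cells against the mean control level (CPM plus 0.01, log axis) for all 19101 entries tested (grey), with DMBT1 and CD14 in red; dotted lines mark an 8-fold rise and 0.5 CPM in controls. Both genes lie above the 8-fold line at a control level below 0.5 CPM, where the scatter of fold changes is wide.

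The GC content of the canonical transcript was 56.4% for DMBT1 and 60.8% for CD14. After the correction for GC content and length, the log2 fold change of DMBT1 was 4.15 and that of CD14 3.16. The correction was fitted on genes whose mean log2 CPM exceeded 2. Both genes lie below that level, so their correction was carried over from better expressed genes. Repeats within DMBT1 bear on how its reads could be placed: of 7885 windows of 100 bases along its canonical transcript, 2002 (25.4%) occur more than once within that transcript. None of these windows, and none of 1257 in CD14, occurs in a GENCODE 44 transcript of another gene, and no other annotated gene overlaps either of them. How the authors' counting treated reads that fit several places is not stated in the labels.

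Genes of the pathway in which CD14 is known to act were called in both directions, at shares not far from those of all entries. Of 27 measured genes of lipopolysaccharide recognition and Toll-like receptor signalling, 7 were higher and 7 lower (25.9% each) at an edgeR adjusted p under 0.05, beside 18.3% higher and 19.7% lower among all entries. The median log2 fold change of the list was -0.044, against -0.0041 over all entries. Of the 40 genes of this list, 27 had an entry in the count table, and all 27 were tested. LBP, LY96, TLR4, TLR2 and the TLR4 adaptor TICAM2 were not analysed here. Of the 3 Toll-like receptors measured, TLR6, a lipopeptide receptor that pairs with TLR2, fell by 0.80 on the log2 scale to 4.06 ± 0.766 CPM in overexpressing cells, against 7.05 ± 0.846 CPM in controls (SD, n = 3 each, edgeR adjusted p = 0.0047), and did not pass after the correction (-0.44, adjusted p = 0.091). TLR3, a receptor for double-stranded RNA, had a log2 fold change of -0.15 (SE 0.15, edgeR adjusted p = 0.48; 0.31 after the correction, adjusted p = 0.16) and TLR1 one of -0.044 (edgeR adjusted p = 0.96). TLR6 and TLR1 were named after their values were seen.

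Among the adaptors and kinases below these receptors, no single direction held. MYD88, the adaptor of most Toll-like receptors, was at 0.935 ± 0.047 CPM in overexpressing cells and 0.528 ± 0.234 CPM in controls (SD, n = 3 each, log2 fold change 0.82, edgeR adjusted p = 0.10), and its partner TIRAP had a log2 fold change of 0.054 (edgeR adjusted p = 0.75). TICAM1, the adaptor of TLR3 and of internalised TLR4, rose 1.2-fold as fitted (edgeR adjusted p = 0.012), a call lost without control library 2 (0.0505) or overexpressing library 1 (0.0503). The kinase IRAK2 rose 1.47-fold, to 58.1 ± 3 CPM against 39.6 ± 1.71 CPM in controls (SD, n = 3 each), and UNC93B1, which carries Toll-like receptors to endosomes, rose 1.48-fold. CNPY3, a chaperone cofactor for Toll-like receptors, and TRAFD1, a negative regulator of the pathway, rose 1.26-fold and 1.24-fold.

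The kinases IRAK4 and MAP3K7, the ubiquitin ligase TRAF6 and the MAP3K7 binding proteins TAB2 and TAB3 fell by 0.43, 0.49, 0.52, 0.48 and 0.68 on the log2 scale, in that order. IRAK1 had a log2 fold change of 0.15 (SE 0.053, edgeR adjusted p = 0.059) and passed without control library 3 (0.0452) or overexpressing library 3 (0.028). In the corrected fit 3 genes were higher and 1 lower, beside 11.4% and 11.3% of all entries, and all 4 had been called in the same direction as fitted: IRAK2 (0.46), UNC93B1 (0.24), TRAFD1 (0.18) and TAB2 (-0.23). TICAM1 (-0.044), IRAK4 (-0.16), TRAF6 (-0.079), MAP3K7 (-0.10), TAB3 (-0.25) and CNPY3 (-8.2e-05) no longer passed.

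DMBT1 belongs to the scavenger receptor cysteine-rich proteins. It was chosen with its difference known, and 0.346% of all entries rose 8-fold or more. That its measured relatives did not share its size of difference therefore supports nothing further. Of 11 other measured genes with such a domain, 2 were higher and 2 lower (18.2% each, beside 18.3% and 19.7% of all entries), and the median of their log2 fold changes was 0.029. LOXL2, a secreted lysyl oxidase that cross-links matrix, rose 1.47-fold to 369 ± 13.3 CPM, against 251 ± 12.2 CPM in controls (SD, n = 3 each). LGALS3BP, a secreted glycoprotein that binds galectin-3, rose 1.27-fold to 20.9 ± 1.42 CPM, against 16.5 ± 2.28 CPM in controls (SD, n = 3 each, edgeR adjusted p = 0.036). This last call was lost without control library 1 (edgeR adjusted p = 0.13) or 2 (0.11), without overexpressing library 1 (0.084) or 2 (0.11), and after the correction.

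CD163L1, a relative of the haemoglobin scavenger receptor, fell by 0.58 on the log2 scale to 18.8 ± 1.1 CPM, against 28.1 ± 0.496 CPM in controls (SD, n = 3 each), and TMPRSS15, the serine protease enteropeptidase, fell by 0.94. LOXL2 (0.36), CD163L1 (-0.54) and TMPRSS15 (-0.58) still passed after the correction. The other 7 did not pass, among them CORIN at a log2 fold change of 0.92 (edgeR adjusted p = 0.18), a gene named after its values were seen. Of 24 genes of mucosal defence and known partners of DMBT1, 3 were measured. The galectin LGALS3, a binding partner of DMBT1, rose 1.36-fold (edgeR adjusted p = 0.0058) and did not pass after the correction (0.27). SFTPD was not analysed here.

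Of 18 other pattern recognition molecules measured, 5 were higher and 1 was lower (27.8% and 5.56%, beside 18.3% and 19.7% of all entries). The median of their log2 fold changes was 0.21, and 0.077 once corrected, with 3 higher and 1 lower (11.4% and 11.3% of all entries). The inflammasome sensor NLRP3 rose 1.57-fold to 3.73 ± 0.288 CPM, against 2.38 ± 0.116 CPM in controls (SD, n = 3 each), and the mitochondrial protein NLRX1 rose 1.38-fold. The galectin LGALS1 and the lipoprotein receptor SCARB1 rose 1.29-fold and 1.19-fold. CARD8, an inflammasome protein, fell by 0.82 on the log2 scale to 16.5 ± 1.31 CPM, against 29.3 ± 2.38 CPM in controls (SD, n = 3 each). NLRP3 (0.60) and CARD8 (-0.46) kept their calls after the correction, while NLRX1 (0.24), LGALS1 and SCARB1 did not. CASP4, named after its values were seen, was the remaining higher gene (log2 fold change 0.26, edgeR adjusted p = 0.012). It kept its call after the correction (0.26, edgeR adjusted p = 0.012). The remaining higher gene after the correction was SCARB2 (0.19, edgeR adjusted p = 0.0097), also named after its values were seen. SCARB2 had not passed as fitted (-0.10, edgeR adjusted p = 0.15).

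Of 10 transcription factors known to act on CD14 or DMBT1 in some cell type, all measured, 3 were higher and 2 lower (30% and 20%, beside 18.3% and 19.7% of all entries). CEBPD, an acute-phase C/EBP factor, rose 2.35-fold to 18.8 ± 0.303 CPM in overexpressing cells, against 8.01 ± 0.755 CPM in controls (SD, n = 3 each, edgeR adjusted p = 9.4e-05). CEBPB, its relative in myeloid and epithelial cells, rose 1.5-fold to 20.5 ± 1.51 CPM, against 13.7 ± 0.313 CPM in controls (SD, n = 3 each), and the NF-kappaB subunit RELA rose 1.22-fold. SP1 and SP3, which bind GC boxes, fell by 0.24 and 0.55 on the log2 scale. CEBPD (0.87) and CEBPB (0.25) passed after the correction, and RELA (0.015), SP1 (0.057) and SP3 (0.019) did not. The vitamin D receptor gene VDR was at 58.8 ± 2.67 CPM in overexpressing cells and 64.3 ± 4.45 CPM in controls (SD, n = 3 each, edgeR adjusted p = 0.13), and was called lower after the correction (-0.21, edgeR adjusted p = 0.016). SPI1, the myeloid factor PU.1, had 7, 31 and 62 counts in overexpressing libraries and 30, 55 and 31 in controls.

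The machinery that makes the GPI anchor and attaches it to proteins such as CD14 was measured in full. Of 29 genes, 12 were higher and 7 lower (41.4% and 24.1%, beside 18.3% and 19.7% of all entries), and the median of their log2 fold changes was 0.072. MPPE1, which remodels the anchor during export from the endoplasmic reticulum, rose 1.71-fold to 31.4 ± 2.61 CPM, against 18.3 ± 1.3 CPM in controls (SD, n = 3 each). GPAA1, PIGT and PIGU, subunits of the transamidase that joins anchor to protein, rose 1.35-fold, 1.3-fold and 1.25-fold. PIGA, PIGM and PIGN, enzymes of anchor assembly, and the anchor deacylase PGAP1 fell by 0.54, 0.37, 0.46 and 0.62 on the log2 scale, the call of PIGA being lost without control library 1 (edgeR adjusted p = 0.056). After the correction 6 genes were higher and none was lower, where 11.4% and 11.3% of all entries were called. Of these 6, 5 had been called higher as fitted. MPPE1 (0.90), GPAA1 (0.10), PIGT (0.11) and PIGU (0.20) passed, and PIGA (-0.21), PIGM (0.076), PIGN (0.022) and PGAP1 (-0.051) did not.

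**Figure D3:**
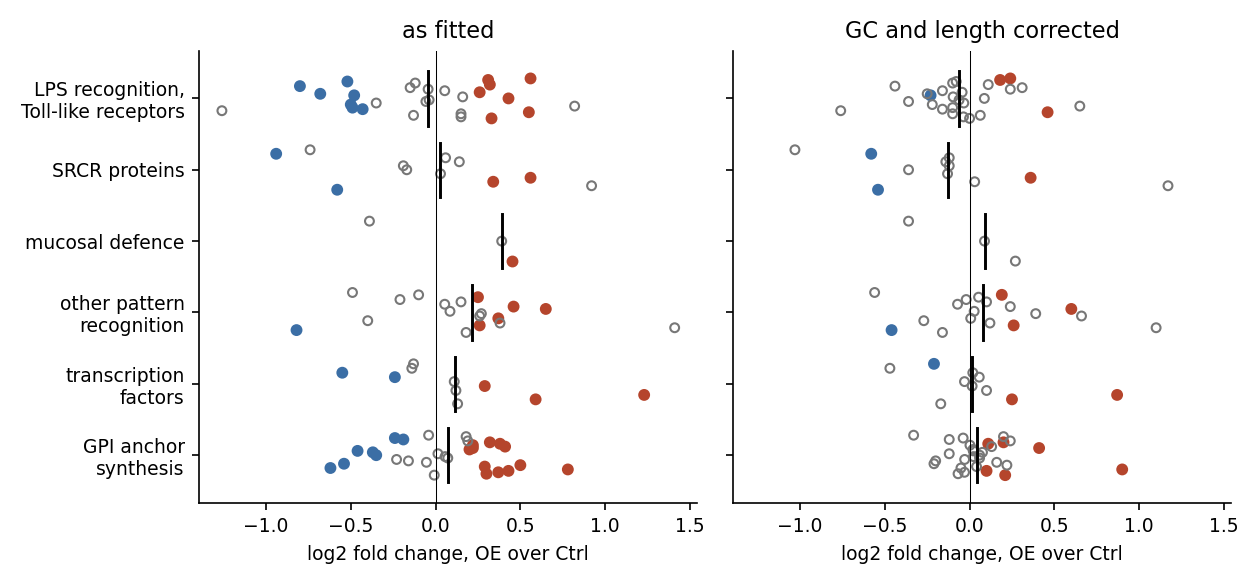
Log2 fold change of overexpressing over control cells for each measured gene of 6 lists around CD14 and DMBT1, as fitted (left) and corrected for GC content and length (right); filled points passed an adjusted p under 0.05 (red higher, blue lower), open points did not, and black bars are list medians. As fitted, the Toll-like receptor list holds 7 filled points on each side of 0, and after the correction 3 and 1.

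Because CD14 marks monocytes and macrophages, markers of these cells were read beside it. Of 22 such markers 6 were measured, with 2 higher and 1 lower (33.3% and 16.7%, beside 18.3% and 19.7% of all entries), and their summed level was 97.9 to 109 CPM in overexpressing libraries and 102 to 107 CPM in controls. CSF1R, the receptor for the macrophage growth factor, had 34, 22 and 22 counts in overexpressing libraries and 9, 0 and 4 in controls. The groups did not overlap, but the call (edgeR adjusted p = 0.0496) was lost after the correction (adjusted p = 0.09). It was also lost when any 1 of the libraries except control 1 was left out, at edgeR adjusted p from 0.066 to 0.14. The lysosomal protein CD68 rose 1.16-fold as fitted and not after the correction (-0.061). The matrix proteoglycan VCAN fell by 0.91 and kept its call after the correction (-0.45, edgeR adjusted p = 0.0037). The pan-leukocyte gene PTPRC and the myeloid gene TYROBP were not analysed here.

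Of 16 airway and alveolar epithelial markers, 6 were measured, 2 were higher and none lower (18.3% and 19.7% among all entries), with sums of 143 to 160 CPM in overexpressing libraries and 107 to 123 CPM in controls. ABCA3, a lipid transporter of alveolar type II cells, rose 1.34-fold and made up most of the sum. It kept its call after the correction (0.32, edgeR adjusted p = 0.00076). FOXJ1, a factor of ciliated cells, had 11, 23 and 12 counts in overexpressing libraries and 4, 0 and 0 in controls. Its call (edgeR adjusted p = 0.045) was lost after the correction (0.09) and when any 1 of the libraries except control 1 was left out (0.065 to 0.14). The part of either cell type in the values of CD14 and DMBT1 was not tested. In RNA from a whole culture, more cells with the transcript and more transcript per cell cannot be told apart.

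CD14 was chosen with its difference known, and 0.346% of all entries rose 8-fold or more. That the tested genes beside it on chromosome 5 did not share its size of difference therefore supports nothing further. Of 26 annotated genes within 100 kb, 14 were tested, 7 were higher and 1 lower, beside 18.3% and 19.7% of all entries, and their log2 fold changes ran from -0.73 to 0.48. After the correction 1 was higher and 1 lower, beside 11.4% and 11.3%. The nearest, NDUFA2, a complex I subunit gene 5.04 kb away, rose 1.26-fold, and TMCO6, 5.74 kb away, rose 1.38-fold. In the corrected fit the log2 fold changes of both were smaller and did not pass (0.11 and 0.18). WDR55, HARS1, the cytosolic histidyl-tRNA synthetase, SRA1, SLC35A4 and APBB3 rose 1.17-fold to 1.4-fold as fitted and did not pass after the correction. The call of SLC35A4 was lost without control library 1 or 2 or overexpressing library 1 or 2 (edgeR adjusted p from 0.073 to 0.14), and that of APBB3 without control library 1 or overexpressing library 2 or 3 (0.057 to 0.082).

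IK, HARS2, DND1 and ZMAT2 did not pass as fitted, with log2 fold changes of 0.052, 0.031, 0.06 and 0.11, and ZMAT2 was called higher after the correction (0.11, edgeR adjusted p = 0.03). ANKHD1 fell by 0.73 and kept its call (-0.45). It shares exons with the readthrough entry ANKHD1-EIF4EBP3, as EIF4EBP3 does, so the split of reads between these 3 entries is uncertain. Of 6 annotated genes within 100 kb of DMBT1 on chromosome 10, 1 was tested: HTRA1, a secreted serine protease gene 45.8 kb away, rose 1.81-fold to 31.5 ± 1.05 CPM, against 17.5 ± 1.74 CPM in controls (SD, n = 3 each, edgeR adjusted p = 0.00021), and passed after the correction (0.57).

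**Figure D4:**
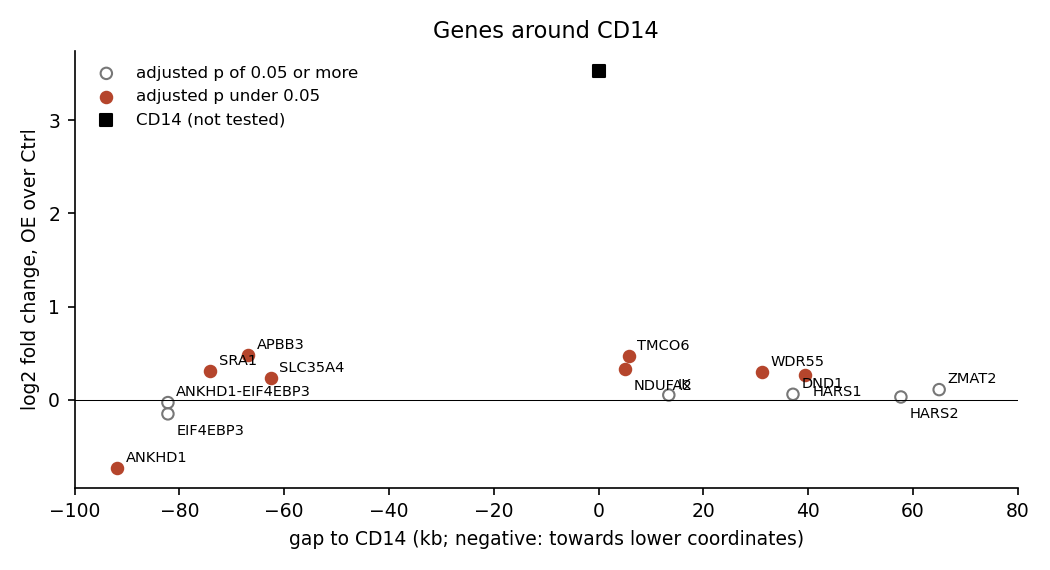
Log2 fold change of overexpressing over control cells for the 14 tested genes within 100 kb of CD14, by the gap to CD14 in kb; red points passed an adjusted p under 0.05, open points did not, and the black square is CD14 itself. The neighbours lie between -0.73 and 0.48, below CD14 at 3.53.

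The entries whose pattern over the 6 libraries was nearest to each gene were found by the root mean square difference between log2 CPM profiles (prior count 2) centred on their own means. Of the 5 nearest to DMBT1, IFIT2 (0.271) and DHX58 (0.4) had counts in controls, and of the 5 nearest to CD14, DHX58 (0.482) and GPR35 (0.486) had. DHX58, an RNA helicase of the RIG-I family, was thus near both. CD14 ranked 21 in nearness to DMBT1 and DMBT1 25 in nearness to CD14, at a difference of 0.726.

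IFIT2, an interferon-induced protein that binds RNA, had 4555, 4186 and 5454 counts in overexpressing libraries and 306, 329 and 357 in controls. DHX58 had 99, 75 and 78 counts in overexpressing libraries and 9, 4 and 3 in controls, and GPR35, a G protein-coupled receptor of immune and gut cells, had 41, 51 and 46 against 11, 4 and 2 in controls. All 3 were far higher in every overexpressing library, which follows from their choice by likeness to DMBT1 or CD14. Only IFIT2 was well counted in controls. The other entries were LRTM2, GABRR2 and ANXA8L1 for DMBT1 and GABRR2, SV2A and MOBP for CD14, with 12 to 36 counts in each overexpressing library and no count in any control. Their control level in the profile is set by the prior count, so their likeness was not measured. ANXA8L1 has near-identical copies in the genome, and its count is uncertain for that reason. With Pearson correlation in place of the distance, 0 of these 5 entries remained for DMBT1 and 0 of 5 for CD14, so the nearest entries depend on the measure.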

How the data were processed

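RNA-seq was run on 3 lncBCAS1-4_1-overexpressing and 3 wild-type samples of H1299 cells. Per the labels' protocols, the authors used fastp for trimming, HISAT2 for alignment to GRCh38, StringTie for assembly and quantification and edgeR for testing. Their versions, the strandedness and the counting step are not stated there. What was deposited is 1 table of 19201 entries holding raw counts, with no normalization. Entries matched GENCODE 44 by Ensembl ID except 134; 8 in which symbol and ID name different genes stayed in the test and in no list.

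Counts were tested with edgeR 4.0.16 (R 4.3.3), quasi-likelihood F-test, TMM, filterByExpr (min.count 10, min.total.count 15), group alone, with Benjamini-Hochberg adjustment over 19101 entries and a threshold of 0.05. SE is the log2 fold change over the square root of F. The correction entered natural splines (5 degrees of freedom) of GC content and log2 length as offsets. The splines were fitted on entries whose mean log2 CPM exceeded 2 and applied to every entry of known length. The fit was tested on simulated data. CPM values use TMM-scaled library sizes. Total counts of 84531039 to 92780032 leave genes well below 1 CPM with few counts. Promoter windows came from RefSeq (GRCh38.p14), matched by symbol for both genes.

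DMBT1, CD14 and the 9 lists, 3 of them cell or line markers, were chosen with earlier results of these data known. Named were fixed partners, up to 4 higher and 4 lower genes of each list with the smallest p, the tested neighbours within 100 kb and the 5 nearest entries by profile; exceptions are stated, and 1 such gene is left unreported. Alternatives were DESeq2 1.42.0, other scalings and filters, a replicate block, and leaving out each library. No 2 libraries of a group agreed within counting error (chi-square divided by its degrees of freedom, 11.6 to 22.7).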

Additional observations from a re-analysis of the deposited data

How the results depend on the processing

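The log2 fold change of DMBT1 stayed between 3.98 and 4.26 and that of CD14 between 3.16 and 3.87 over all alternatives, the ends being set by leaving out 1 library, with CD14 also at 3.16 after the GC and length correction. That correction moved counts over all entries to 2171 higher and 2166 lower (1710 and 1642 with the replicate block added), Toll-like receptor genes to 3 and 1 (3 and 1 with the block), cysteine-rich proteins to 1 higher (1), mucosal defence to 0 higher (0), pattern recognition to 3 higher (3), transcription factors to 1 lower (1, with 1 higher) and GPI anchor genes to 6 higher and 0 lower (3 and 0). The criterion of more than 2-fold with unadjusted p under 0.05 gave 338 entries that were higher and 226 lower. Reversed after the correction, without a call, were CNPY3 (-8.2e-05), SP3 (0.019; 0.019 with the block), SP1 (0.057; 0.057), PIGN (0.022; 0.022), PIGM (0.076; 0.077), CD68 (-0.061; -0.061), TICAM1 (-0.044; -0.043) and SLC35A4 (-0.014; -0.013). Why single values moved was not tested. By library size alone 1 cysteine-rich gene was higher. Leaving out 1 library gave 1 to 2 higher cysteine-rich genes and 4 to 7 lower GPI anchor genes. IRAK1 passed by the DESeq2 test (adjusted p = 0.015) and ZMAT2 likewise (0.042). Counts under 20 per library, as for CD14 in controls, limit the fold changes of low genes.

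The shared replicate numbers did not pair the libraries: deviations from the group means correlated at -0.0735, -0.262 and -0.438 for numbers 1, 2 and 3 over 10091 genes. Between libraries with different numbers the correlations ran from -0.155 (overexpressing 1 with control 2) to 0.359 (overexpressing 3 with control 2). A fit with the replicate block gave 2681 higher and 3014 lower entries, 1 higher cysteine-rich gene and 4 lower GPI anchor genes, and CD14 at 3.58 and DMBT1 at 4.17.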
